A study of Mus musculus with 12 samples.

Results

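The 7 mouse genes that encode the classical inhibitors of cyclin-dependent kinases were read from every library of a study of mouse embryonic fibroblasts (MEFs) with and without the ARF tumor suppressor. They are the members of a gene family, which was picked with earlier results of these data known: *Cdkn1a*, *Cdkn1b* and *Cdkn1c* of the CIP/KIP family and *Cdkn2a*, *Cdkn2b*, *Cdkn2c* and *Cdkn2d* of the INK4/ARF family, which makes 7 of the 20661 genes counted. There were 3 groups, and all of their cells had received a lentivirus with a puromycin resistance gene and a short hairpin RNA. WT-shSCR were WT MEFs with a scrambled hairpin, WT-shARF were WT MEFs with a hairpin against ARF, and Arf-/- shSCR were MEFs of the strain B6.129X1-Cdkn2atm1Cjs/KaiJ with the scrambled hairpin, in which a neo cassette stands in place of exon 1β of *Cdkn2a*. For the WT MEFs the strain is C57BL/6J in the labels and B6129SF2/J in the study's methods, so a difference between WT and Arf-/- MEFs cannot be told apart from one of strain or of the MEF preparation. Each group was measured at passage 4 by RNAseq of fragmented, rRNA-depleted RNA and by ribosome profiling (RiboSeq), which sequences the stretch of mRNA that a ribosome shields from nuclease. With 2 replicates this gave 12 libraries, and the labels do not say that replicates were separate cultures, so p-values measure the spread between these libraries only. Translation efficiency (TE) is the footprint level divided by the RNA level.

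Both families bind cyclin-dependent kinases, alone or with their cyclins, and hold cells in G1. INK4 proteins bind CDK4 and CDK6 and keep D-type cyclins off them, so that the retinoblastoma protein stays unphosphorylated and holds E2F, whereas CIP/KIP proteins bind a wider range of complexes, above all those of CDK2. The *Cdkn2a* gene makes a second, unrelated product from an alternative first exon, ARF, which binds MDM2 and so spares p53 from degradation, and p53 in turn activates *Cdkn1a*. In cultured MEFs the products of *Cdkn2a* and *Cdkn2b* are known to accumulate as the cells are passaged toward senescence.

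*Cdkn2a* lies on the minus strand of chromosome 4, at chr4:89274471-89294653 of GRCm38 (mm10), with *Cdkn2b* beside it at chr4:89306299-89311039 on the same strand. The coding part of exon 1β is 190 bases (chr4:89294334-89294523), that of exon 1α is 126 bases (chr4:89281986-89282111), and both are spliced to the same base of exon 2. The sequences across the junctions are shown because they are what separates an ARF read from an INK4A read, with the shared exon 2 in capitals and 15 bases on each side.
ARF junction: ggaatcctggaccagGTGATGATGATGGGC
INK4A junction: cgtaccccgattcagGTGATGATGATGGGC
The starts of the coding sequences lie in the unshared first exons, with the start codon in capitals.
ARF start: ATGggtcgcaggttcttggtcactgtgagg
INK4A start: ATGgagtccgctgcagacagactggccagg
Exon 1β leaves 1 base over after whole codons and exon 1α leaves 0, so exon 2 is read in different frames in ARF (169 codons) and INK4A (168 codons). Of the 694 coding bases of the gene, 317 (45.7%) belong to both products, 190 (27.4%) to ARF alone and 187 (26.9%) to INK4A alone. For a read of 28 nt, 44.1% of the 664 possible windows occur in both products, 28.2% in ARF alone and 27.7% in INK4A alone. A count for *Cdkn2a* is therefore a sum over both products and could not be split here, and 504 of the 694 coding bases remain in the Arf-/- allele.

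**Figure D1:**
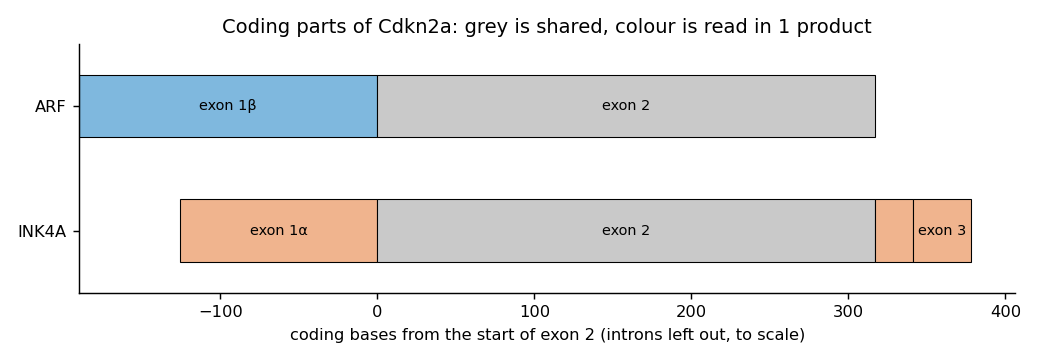
Coding parts of the ARF and INK4A products of *Cdkn2a*, drawn to scale in coding bases from the start of exon 2 (x axis), with introns left out. Grey marks the 317 bases of exon 2 in both products, blue the 190 bases of exon 1β in ARF alone, and orange the 187 bases in INK4A alone.

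*Cdkn2a* was the gene targeted in 2 of the 3 groups, and its counts were highest in the libraries labelled WT-shARF. These counts sum ARF and INK4A, so they do not show whether ARF itself was knocked down. In RNAseq, *Cdkn2a* had 119 and 65 reads in WT-shSCR, 1201 and 2852 in WT-shARF and 76 and 75 in Arf-/- shSCR. As CPM (counts put on the scale of equal library sizes with the TMM factors of edgeR over the 6 libraries of an assay) these were 44.8 and 42.0 in WT-shSCR, 644 and 668 in WT-shARF, and 27.7 and 32.2 in Arf-/- shSCR. Both WT-shARF libraries lay far above all 4 other libraries, and both Arf-/- shSCR libraries lay below WT-shSCR. The footprints had the same order of groups, with 93.4 and 66.2 CPM in WT-shSCR, 533 and 741 CPM in WT-shARF and 39.6 and 34.4 CPM in Arf-/- shSCR. All directions of the knockdown below are therefore those of the libraries labelled WT-shARF. The files hold counts per gene, so whether the reads of these libraries fall on exon 1β, exon 1α or exon 2 was not tested. The study checked the ARF protein by immunoblot, which these counts do not measure and which was not analysed here. The hairpin sequence is not given in the sources used here.

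In the libraries labelled WT-shARF, *Cdkn2a* RNA rose 14.99-fold over WT-shSCR (43.4 ± 2.01 to 656 ± 17.1 CPM, mean ± SD, n = 2), a log2 change of 3.91 (SE 0.16, edgeR quasi-likelihood test, adjusted p = 5.57e-18). Its footprints rose 7.96-fold, from 79.8 ± 19.3 to 637 ± 147 CPM, a log2 change of 2.99 (SE 0.14, edgeR adjusted p = 3.49e-17). This gene had the smallest adjusted p among the members in both assays, and the call held without either replicate of either group. In Arf-/- shSCR the footprints fell 2.14-fold from WT-shSCR to 37.0 ± 3.68 CPM, by 1.10 on the log2 scale (SE 0.19, edgeR adjusted p = 4.67e-05). The RNA was 29.9 ± 3.21 CPM, a log2 difference of -0.54 from WT-shSCR (95% interval -1.06 to -0.03), which did not pass (edgeR adjusted p = 0.197). Set against WT-shARF directly, Arf-/- shSCR held 22.1-fold less *Cdkn2a* RNA (log2 change -4.46, SE 0.16, edgeR adjusted p = 1.27e-09) and 17.2-fold fewer footprints (log2 change -4.10, SE 0.14, edgeR adjusted p = 1.42e-12). In these bulk samples fewer cells of a type and less RNA per cell cannot be told apart.

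**Figure D2:**
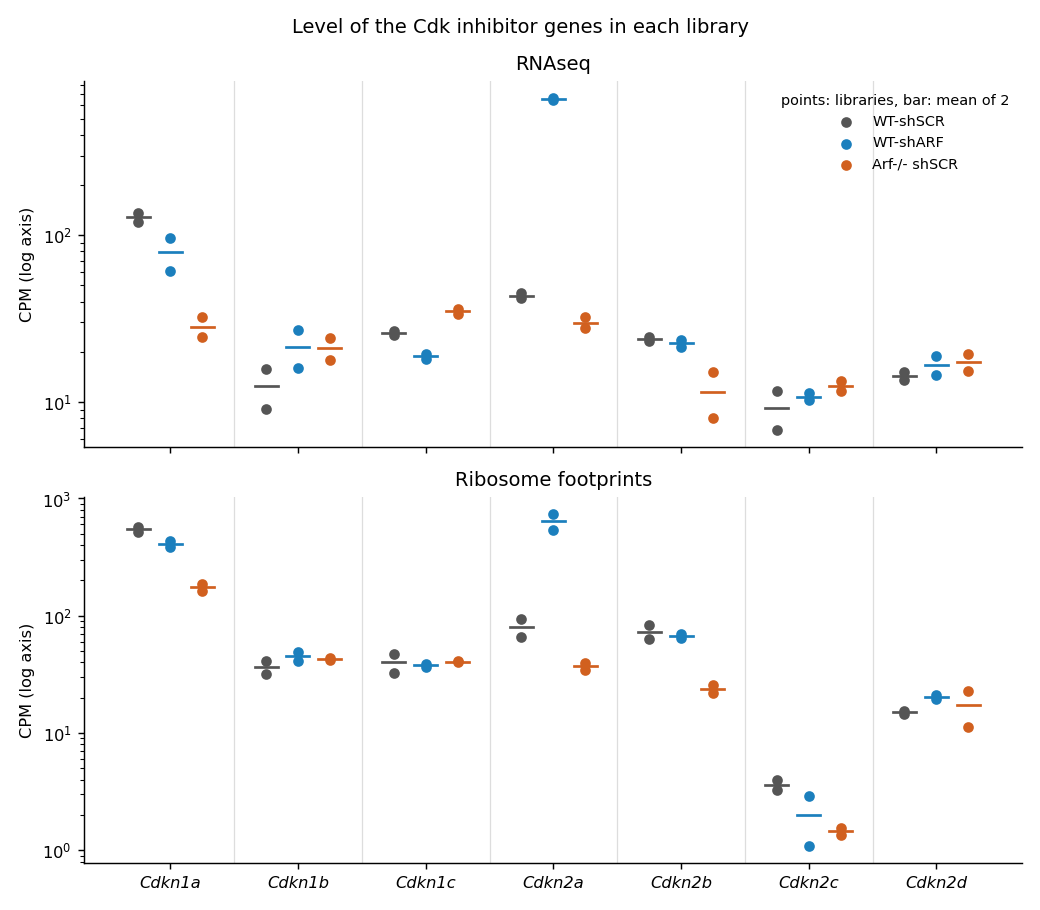
Level of each Cdk inhibitor gene in each library, in CPM on a log axis, with RNAseq above and ribosome footprints below. Points are libraries, coloured by group, and bars are means of 2. *Cdkn2a* in WT-shARF (656 ± 17.1 CPM of RNA) stands above every other member in RNA, and for *Cdkn1a* the Arf-/- shSCR points lie lowest in both assays.

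Of the 7 members tested, RNA of 1 fell and none rose in Arf-/- shSCR against WT-shSCR, where edgeR called 7.93% of the 10659 genes tested in either direction and 3.99% lower. In WT-shARF 1 member rose and 1 fell, against 7.28% of 10503 genes called. Among footprints, 3 of 7 members fell in Arf-/- shSCR, where 18.5% of 10737 genes were called in either direction and 8.95% were called lower. Among these 3 was *Cdkn2a*, the targeted gene, of which 504 of the 694 coding bases remain in the Arf-/- allele. In its count the missing bases and a change of level cannot be told apart. In WT-shARF, 1 of 6 members tested rose and 1 fell, where 11.1% of 10307 genes were called. The median log2 change of the members was 0.26 in RNA and -1.10 in footprints for Arf-/- shSCR and 0.17 in RNA and 0.12 in footprints for WT-shARF, beside medians from -0.0038 to -0.00087 over all genes tested. In Arf-/- shSCR against WT-shARF, RNA of 2 of 7 members fell, where 2.57% of 10632 genes were called in either direction and 1.19% lower, and footprints of 3 of 6 members tested fell, where 8.23% of 10941 genes were called in either direction and 4.3% lower. *Cdkn2a* was among the members that fell there in both assays, and the median of -1.10 above was its own value. *Cdkn2c* passed the filter on low counts for footprints in the Arf-/- shSCR comparison with WT-shSCR, but not in the other 2 comparisons. Both comparisons use the same WT-shSCR libraries, so their values for a gene are set side by side and are not independent.

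*Cdkn1a* (chr17:29090976-29100727, plus strand) encodes p21, the CDK inhibitor best known as a p53 target, and it was the member that changed in every comparison of level. Its RNA was 119 and 136 CPM in WT-shSCR, 96.5 and 61.1 CPM in WT-shARF and 24.4 and 32.2 CPM in Arf-/- shSCR. The 3 groups did not overlap, with WT-shSCR highest and Arf-/- shSCR lowest. From WT-shSCR to Arf-/- shSCR the RNA fell 4.52-fold, a log2 change of -2.18 (SE 0.22, edgeR adjusted p = 3.78e-06). To WT-shARF it fell 1.66-fold, a log2 change of -0.73 (SE 0.19, edgeR adjusted p = 0.0142). That smaller fall was not called without WT-shARF replicate 2 (log2 change -0.40, edgeR adjusted p = 0.479), nor by DESeq2 (log2 change -0.71, adjusted p = 0.0878), nor with all groups in 1 edgeR fit (log2 change -0.72, adjusted p = 0.0595). The Arf-/- shSCR RNA level also lay 2.76-fold below that of WT-shARF (log2 change -1.46, SE 0.25, edgeR adjusted p = 0.00664). That call was lost without WT-shARF replicate 1 (log2 change -1.12, edgeR adjusted p = 0.148) and without replicate 2 (log2 change -1.78, edgeR adjusted p = 0.0735).

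Footprints on *Cdkn1a* numbered 852 to 1845 reads per library, the deepest coverage of any member outside the *Cdkn2a* reads of WT-shARF. They came to 568 and 521 CPM in WT-shSCR, 432 and 382 CPM in WT-shARF and 164 and 188 CPM in Arf-/- shSCR, so the groups stood in the same order as in RNA without overlap. Against WT-shSCR they fell 3.07-fold in Arf-/- shSCR, a log2 change of -1.62 (SE 0.10, edgeR adjusted p = 1.53e-13). In WT-shARF they fell 1.34-fold, a log2 change of -0.42 (SE 0.09, edgeR adjusted p = 0.00133), which was not called without WT-shARF replicate 2 (log2 change -0.34, edgeR adjusted p = 0.0922). Between Arf-/- shSCR and WT-shARF the footprints differed 2.30-fold, a log2 change of -1.20 (SE 0.10, edgeR adjusted p = 1.44e-07).

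*Cdkn2b*, the neighbour of *Cdkn2a*, encodes p15, an inhibitor of CDK4 and CDK6, and its footprints were lower in Arf-/- shSCR than in both WT groups. Its footprints were 83.6 and 63.0 CPM in WT-shSCR, 70.0 and 64.8 CPM in WT-shARF and 21.7 and 25.7 CPM in Arf-/- shSCR. WT-shSCR and WT-shARF overlapped, and both Arf-/- shSCR libraries lay below them. Against WT-shSCR the footprints fell 3.07-fold in Arf-/- shSCR, a log2 change of -1.62 (SE 0.20, edgeR adjusted p = 2.61e-07). In WT-shARF the log2 difference was -0.13 (95% interval -0.49 to 0.24, edgeR adjusted p = 0.743). The test of the difference itself, Arf-/- shSCR against WT-shARF, gave a log2 change of -1.50 (SE 0.18, edgeR adjusted p = 1.89e-05).

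In RNA, *Cdkn2b* had only 22 to 101 reads per library. The levels were 23.3 and 24.5 CPM in WT-shSCR, 21.4 and 23.7 CPM in WT-shARF and 8.01 and 15.03 CPM in Arf-/- shSCR. Again the Arf-/- shSCR libraries were the lowest, but they differed from each other almost as much as from the rest. The log2 difference of -1.07 from WT-shSCR (95% interval -1.84 to -0.29) did not pass (edgeR adjusted p = 0.0872). Without Arf-/- shSCR replicate 2 it passed at -1.57 (edgeR adjusted p = 0.0182), and so did the difference of Arf-/- shSCR from WT-shARF (log2 change -1.50, edgeR adjusted p = 0.0229, from -0.998 and 0.165 with both replicates).

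The footprint calls between Arf-/- shSCR and each WT group rested on both WT replicates. Without WT-shSCR replicate 1 the log2 changes of *Cdkn1a*, *Cdkn2a* and *Cdkn2b* from WT-shSCR were -1.54, -0.81 and -1.39, and without replicate 2 they were -1.68, -1.32 and -1.80, with edgeR adjusted p from 0.0724 to 0.137. In those fits edgeR called 0 genes over the whole table, while 2467 and 2553 genes, with 3 members among them each time, had an unadjusted p under 0.05. Without WT-shARF replicate 1 or 2, none of the 3 footprint calls of Arf-/- shSCR against WT-shARF held either, with edgeR adjusted p of 0.0544 and 0.0551 for *Cdkn2a*, 0.142 to 0.196 for *Cdkn1a* and 0.220 to 0.229 for *Cdkn2b*. Each of these 6 log2 changes kept its direction in all the fits that left out a replicate.

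The sums of some cell type markers also differed between the groups. None of the 10 fibroblast markers was at 0 in both libraries of a group, and their sum was lowest in Arf-/- shSCR. It was 21347 to 24805 CPM of RNA in WT-shSCR, 22142 to 22326 in WT-shARF and 16263 to 17480 in Arf-/- shSCR, and 46839 to 49465, 52708 to 54237 and 36642 to 36764 CPM of footprints in the same order. Single markers went both ways in Arf-/- shSCR against WT-shSCR. Of the 10, 2 rose and 1 fell in RNA, and 3 rose and 3 fell in footprints, where 7.93% and 18.5% of all genes were called. The part of the fibroblast markers in the results was not tested. The 12 myeloid markers, among them *Csf1r*, *Tyrobp* and *Lyz2*, summed to 525 to 545 CPM of RNA in WT-shSCR, 190.4 to 279 CPM in WT-shARF and 57.5 to 80.7 CPM in Arf-/- shSCR, and only *Aif1* was at 0 in both RNAseq libraries of Arf-/- shSCR. Their footprints summed to 652 to 702, 247 to 309.9 and 50.8 to 68.7 CPM in the same order, which is also the order of *Cdkn1a*. Against WT-shSCR, RNA of 9 of 11 myeloid markers tested fell in Arf-/- shSCR, where edgeR called 3.99% of all genes lower. In WT-shARF 3 of 11 fell, where 438 of 10503 genes were called lower. The part of the myeloid markers in the results for *Cdkn1a*, *Cdkn2a* and *Cdkn2b* was not tested. The 10 epithelial and mesothelial markers were highest in Arf-/- shSCR, with 179 to 201 CPM of RNA beside 97.5 to 99.8 CPM in WT-shSCR and 61.1 to 69.3 CPM in WT-shARF, and their part was not tested either. *Epcam*, *Upk3b* and *Lrrn4* were at 0 in both footprint libraries of WT-shSCR. The 6 endothelial markers summed to 64.8 to 100.2 CPM of RNA over all libraries.

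**Figure D3:**
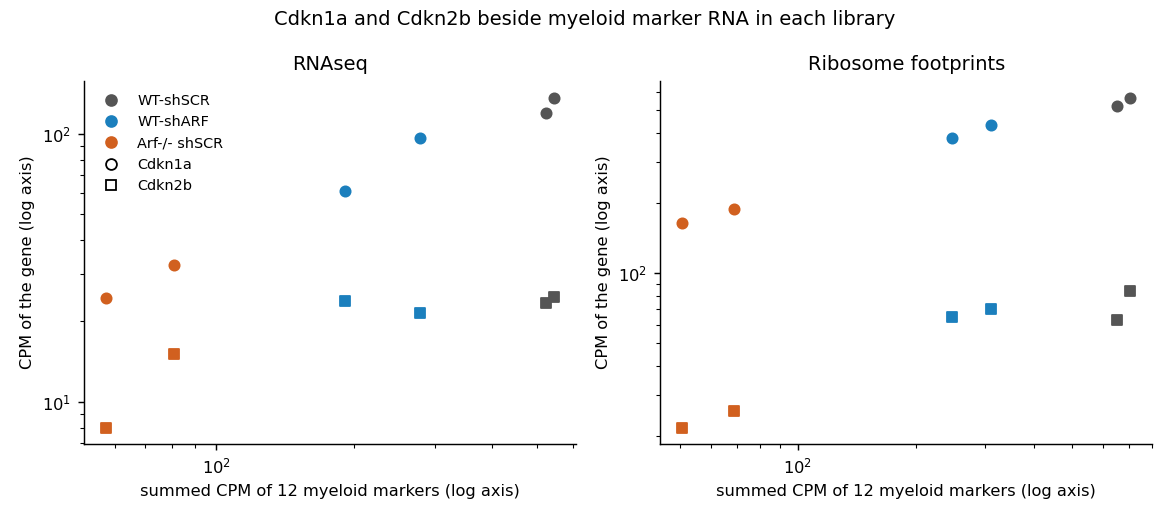
CPM of *Cdkn1a* (circles) and *Cdkn2b* (squares) in each library against the summed CPM of 12 myeloid markers, on log axes, with RNAseq at left and ribosome footprints at right. The Arf-/- shSCR libraries lie lowest on both axes (57.5 to 80.7 CPM of myeloid RNA), and between WT-shARF and WT-shSCR the level of *Cdkn1a* differs while the footprints of *Cdkn2b* overlap.

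**Figure D4:**
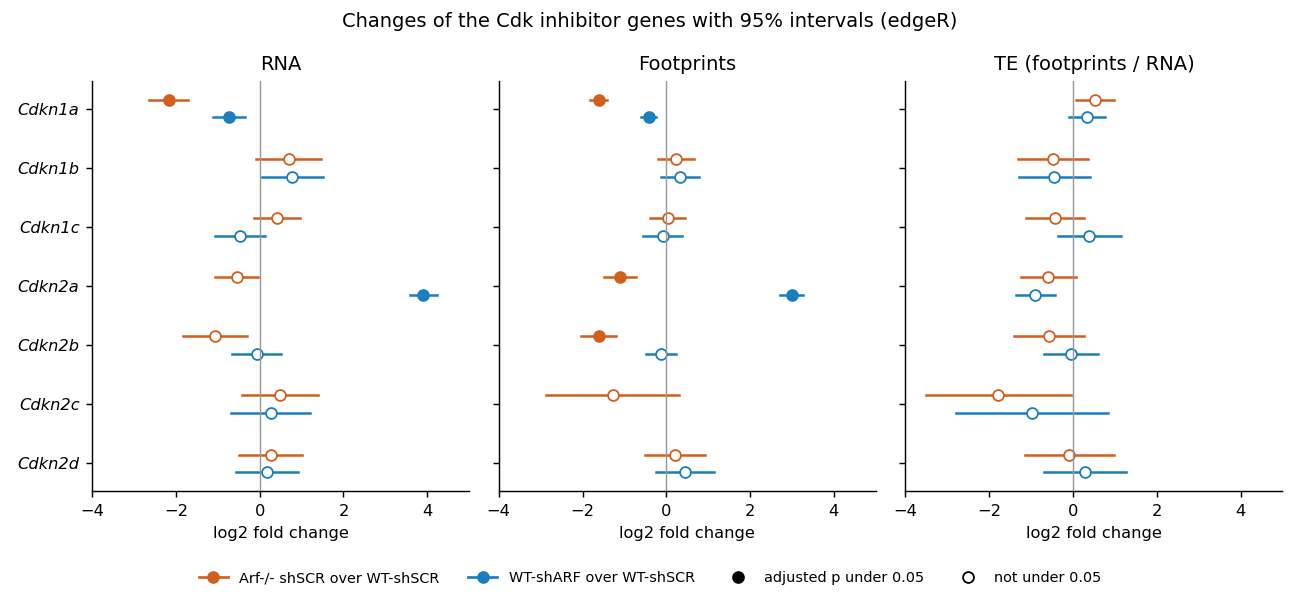
Log2 fold change (x axis) of each Cdk inhibitor gene over WT-shSCR in RNA, footprints and TE, with the 95% interval of the edgeR fit. Filled points have an adjusted p under 0.05. The fall of *Cdkn1a* and the rise of *Cdkn2a* in WT-shARF are filled in RNA and footprints, the falls of *Cdkn2a* and *Cdkn2b* in Arf-/- shSCR are filled in footprints only, and no TE point is filled.

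The other CIP/KIP members stood apart from *Cdkn1a*, and none of their changes of level passed in any comparison. *Cdkn1b* (chr6:134920401-134925513, plus strand) encodes p27, which accumulates in resting cells. Its RNA was 15.8 and 9.04 CPM in WT-shSCR, 16.1 and 26.9 CPM in WT-shARF and 17.8 and 24.05 CPM in Arf-/- shSCR. These values rest on 14 to 115 reads per library, and the replicates of WT-shSCR lay as far apart as some of the groups. Both other groups lay above WT-shSCR, with log2 differences of 0.70 in Arf-/- shSCR (95% interval -0.08 to 1.47, edgeR adjusted p = 0.283) and 0.78 in WT-shARF (95% interval 0.05 to 1.51, edgeR adjusted p = 0.201). The footprints were 31.8 and 41.4 CPM in WT-shSCR, 41.5 and 49.3 CPM in WT-shARF and 41.6 and 43.3 CPM in Arf-/- shSCR, with log2 differences from WT-shSCR of 0.33 in WT-shARF and 0.23 in Arf-/- shSCR (edgeR adjusted p = 0.412 and 0.494).

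*Cdkn1c* (chr7:143458339-143461050, minus strand) is an imprinted gene that encodes p57 and is active during development. Its RNA was 26.7 and 25.2 CPM in WT-shSCR, 18.2 and 19.4 CPM in WT-shARF and 36.0 and 33.9 CPM in Arf-/- shSCR. The replicates lay close together, and the groups did not overlap. The widest gap, between Arf-/- shSCR and WT-shARF, was a log2 difference of 0.88 (95% interval 0.34 to 1.41) that did not pass (edgeR adjusted p = 0.0861). No such order was seen in the footprints, which were 47.2 and 32.7 CPM in WT-shSCR, 36.4 and 38.9 CPM in WT-shARF and 41.2 and 40.2 CPM in Arf-/- shSCR. The footprint log2 difference from WT-shSCR was 0.03 in Arf-/- shSCR (95% interval -0.39 to 0.46) and -0.09 in WT-shARF (95% interval -0.55 to 0.38). Of the 1096 windows of 28 nt in its coding transcripts, 573 (52.3%) also occur in the transcript of the antisense gene *Gm44732*. The counting command that the study gives as an example sets no strand option, and HTSeq by default assigns a read only to genes on its own strand, but whether these libraries were counted so was not tested. The other 6 members shared no window of this length with another gene.

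*Cdkn2c* and *Cdkn2d* encode p18 and p19, INK4 proteins that are expressed in many tissues during development. *Cdkn2c* (chr4:109660876-109667189, minus strand) was the member with the fewest reads, with 18 to 44 per RNAseq library and 3 to 14 per RiboSeq library. Its RNA was 6.78 and 11.6 CPM in WT-shSCR, 11.3 and 10.3 CPM in WT-shARF and 11.6 and 13.3 CPM in Arf-/- shSCR. Its footprints were 3.28 and 3.94 CPM in WT-shSCR, 1.08 and 2.90 CPM in WT-shARF and 1.35 and 1.55 CPM in Arf-/- shSCR. The footprints were thus highest in WT-shSCR, where the RNA was not, but the log2 difference of -1.28 in Arf-/- shSCR had an interval from -2.88 to 0.31 and did not pass (edgeR adjusted p = 0.283).

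*Cdkn2d* (chr9:21288410-21291407, minus strand) was not called in any comparison. Its RNA group means ran from 14.3 ± 1.06 CPM in WT-shSCR through 16.6 ± 2.998 in WT-shARF to 17.3 ± 2.86 CPM in Arf-/- shSCR, closer together than some replicates. The footprint means were 14.99 ± 0.587, 20.3 ± 1.16 and 17.2 ± 8.25 CPM in the same order, the last from replicates of 11.4 and 23.0 CPM. Its 95% intervals for the log2 difference in RNA from WT-shSCR were -0.48 to 1.00 in Arf-/- shSCR and -0.57 to 0.92 in WT-shARF. Against WT-shARF, the footprints of Arf-/- shSCR differed by a log2 of -0.24 for *Cdkn2d*, -0.10 for *Cdkn1b* and 0.11 for *Cdkn1c*, none of them called by edgeR. The value of *Cdkn2d* turned with 1 library, from 0.18 without Arf-/- shSCR replicate 1 to -0.84 without replicate 2.

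No member was called for TE in any of the 3 comparisons by edgeR, where 0.194% of 11314 genes were called for Arf-/- shSCR against WT-shSCR, 0.0354% of 11289 for WT-shARF against WT-shSCR and 0.043% of 11632 for Arf-/- shSCR against WT-shARF. At an unadjusted p under 0.05 the members numbered 2, 1 and 1 in these comparisons, and DESeq2 called 0, 1 and 0. The smallest adjusted p among the members belonged to *Cdkn2a* in WT-shARF, whose TE was 0.971 beside 1.84 in WT-shSCR. This was a log2 difference of -0.90 (SE 0.23, edgeR adjusted p = 0.151), in which the 7.96-fold rise of the footprints stood beside the 14.99-fold rise of the RNA. The alternatives under which it passed included DESeq2 (log2 change -0.90, adjusted p = 0.0217), edgeR without the filter on low counts (-0.89, adjusted p = 0.00574), and edgeR without WT-shARF replicate 2 (-1.16, adjusted p = 0.0345) and without WT-shSCR replicate 2 (-1.11, adjusted p = 0.0362). Over all 11 alternatives the estimate stayed below 0, from -1.16 to -0.67, with adjusted p from 0.00574 to 0.781.

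The other members under an unadjusted edgeR p of 0.05 in TE were *Cdkn1a* and *Cdkn2c* in Arf-/- shSCR against WT-shSCR and *Cdkn1c* in Arf-/- shSCR against WT-shARF. For *Cdkn1a* the log2 difference was 0.53 (95% interval 0.07 to 0.98, edgeR adjusted p = 0.614), that is, the RNA was lower by more than the footprints. For *Cdkn2c* it was -1.78 (95% interval -3.51 to -0.05, edgeR adjusted p = 0.708). *Cdkn1c* gave -0.77 (95% interval -1.39 to -0.15, edgeR adjusted p = 0.553).

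Levels of TE differed more between the members than between the groups. TE is a ratio within a gene, so coding length does not enter it. For *Cdkn2a* the ratio, here and in the tests above, is taken over ARF and INK4A together, and the part of each was not tested. The median over 11590 to 11598 genes was 0.942 in WT-shSCR, 0.948 in WT-shARF and 0.932 in Arf-/- shSCR. *Cdkn1a* had a TE of 4.26 in WT-shSCR, 5.16 in WT-shARF and 6.22 in Arf-/- shSCR, which placed it at the percentile 98.5, 99.2 and 99.5 of all genes. *Cdkn2b* (3.06, 2.99 and 2.06) and *Cdkn1b* (2.94, 2.11 and 2.03) also lay at the percentile 89.1 or above in all 3 groups. At the other end, *Cdkn2c* had a TE of 0.392, 0.185 and 0.116, at the percentile 12.7, 5.94 and 4.94. *Cdkn1c* (1.54, 2.00 and 1.16), *Cdkn2a* (1.84, 0.971 and 1.24) and *Cdkn2d* (1.05, 1.22 and 0.993) lay between. In WT-shSCR, where the 4 pairings of a footprint library with an RNAseq library gave 3.83 to 4.76 for *Cdkn1a* and 0.282 to 0.581 for *Cdkn2c*, these ranges were far apart, while those of *Cdkn2b* (2.57 to 3.58) and *Cdkn1b* (2.01 to 4.58) overlapped each other.

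To compare levels between genes, CPM was divided by the coding length in kb. *Cdkn1a* led in WT-shSCR, with 268 ± 24.97 CPM per kb of RNA, 55.4% of the sum of the 7 members, and 1141 ± 69.0 CPM per kb of footprints, 72.3% of the sum. *Cdkn2a* and *Cdkn2b* came next in RNA and did not differ beyond their spread (62.5 ± 2.90 and 61.4 ± 2.15 CPM per kb). *Cdkn2d*, *Cdkn1c*, *Cdkn1b* and *Cdkn2c* followed at 28.2 to 18.2 CPM per kb of RNA. Of the neighbours in this order of 4 genes, only *Cdkn2d* and *Cdkn1c* were spaced beyond their SD. In WT-shSCR footprints the order was *Cdkn1a*, *Cdkn2b* (188 ± 37.3 CPM per kb), *Cdkn2a* (115 ± 27.8), *Cdkn1b* (61.9 ± 11.4), *Cdkn1c* (37.0 ± 9.50), *Cdkn2d* (29.6 ± 1.16) and *Cdkn2c* (7.16 ± 0.928), of which the neighbours *Cdkn1c* and *Cdkn2d* overlapped within their SD.

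The members' sum was 483 ± 19.8 CPM per kb of RNA in WT-shSCR, 1276 ± 17.1 in WT-shARF and 259 ± 43.0 in Arf-/- shSCR. In footprints it was 1580 ± 132, 2099 ± 145 and 629 ± 55.6 CPM per kb in the same order. *Cdkn2a* made up 13.0% of this sum of RNA in WT-shSCR, 74.1% in WT-shARF and 16.8% in Arf-/- shSCR, and 7.23%, 43.5% and 8.55% of the sum of footprints. In WT-shARF *Cdkn1a* and *Cdkn2a* had 853 ± 73.1 and 918 ± 211 CPM per kb of footprints, within their spread, whereas *Cdkn2a* RNA exceeded *Cdkn1a* RNA (945 ± 24.7 against 165 ± 52.4 CPM per kb). In Arf-/- shSCR the RNA of the 7 members lay within 24.8 to 59.3 CPM per kb. These figures divide the *Cdkn2a* counts by the 694 bases of both products together. Divided by the 507 bases of its longest single coding transcript, its share of RNA in WT-shARF was 79.6% and its share of footprints 51.2%. With that divisor several orders changed. In WT-shARF *Cdkn2a* footprints came to 1256 ± 289 CPM per kb, above *Cdkn1a* beyond their SD. In WT-shSCR *Cdkn2a* stood above *Cdkn2b* in RNA (85.6 ± 3.97 CPM per kb) and overlapped with it in footprints (157 ± 37.99). In Arf-/- shSCR, where 504 coding bases remain, *Cdkn2a* RNA (59.0 ± 6.34 CPM per kb) did not differ from *Cdkn1a* RNA (59.3 ± 11.6) beyond their spread.

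**Figure D5:**
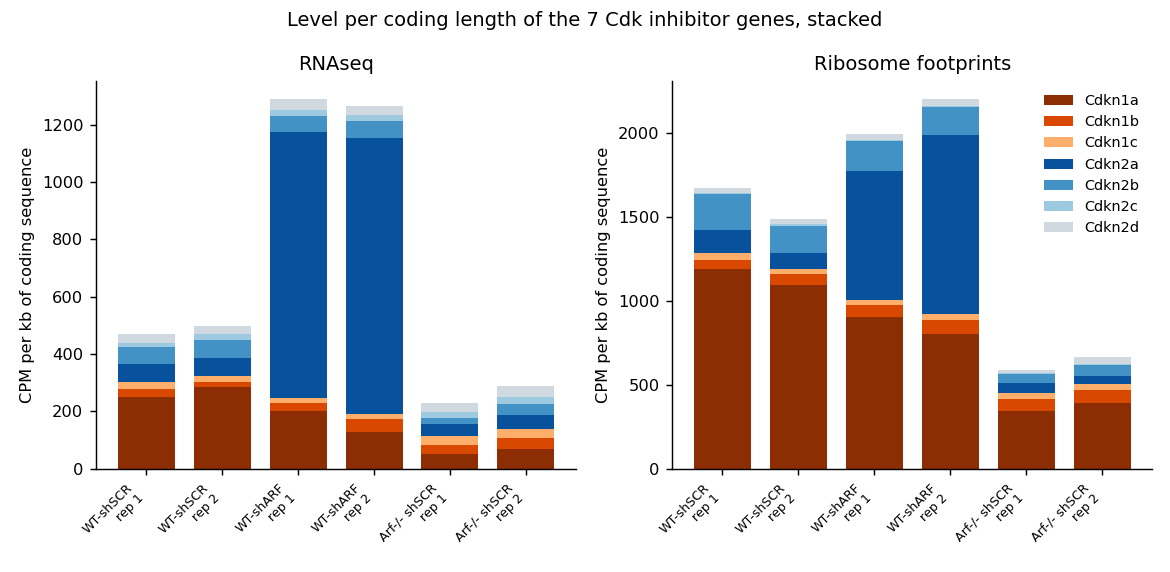
CPM per kb of coding sequence (y axis) of the 7 Cdk inhibitor genes stacked in each library, RNAseq at left and ribosome footprints at right, from a base of 0. *Cdkn1a* (dark brown) fills most of the WT-shSCR bars, *Cdkn2a* (dark blue) most of the WT-shARF RNA bars, and the Arf-/- shSCR bars are the shortest, at 259 ± 43.0 CPM per kb in RNA and 629 ± 55.6 in footprints.

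Likeness of pattern was taken as Pearson's r over the 12 libraries, on log2(CPM + 1) centred within each assay, among 10368 genes. These libraries share 3 groups and their depth, so the values are a description. For *Cdkn1a* the nearest genes included *Sirpa* (r = 0.988), *Tyrobp* (0.982), *Csf1r* (0.980) and *C5ar1* (0.979). Of these, *Tyrobp* and *Csf1r* are on the list of myeloid markers, and *Sirpa* and *C5ar1* are receptors known from myeloid cells. RNA of *Csf1r*, the receptor of the macrophage growth factor CSF1, averaged 103 CPM in WT-shSCR, 56.6 in WT-shARF and 8.73 in Arf-/- shSCR. For *Cdkn2a* the nearest genes were *Col1a1* (0.969), *Mov10* (0.966), *AU040320* (0.957), *Crct1* (0.956) and *Postn* (0.955), all highest in WT-shARF. *Col1a1*, the main chain of type I collagen, averaged 3755 CPM of RNA in WT-shSCR, 5157 in WT-shARF and 3436 in Arf-/- shSCR. Among the members themselves the highest r was that of *Cdkn1a* with *Cdkn2b* (0.887) and the lowest that of *Cdkn1c* with *Cdkn2a* (-0.677).

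The path from ARF to p53 holds a further target of p53. *Mdm2*, the ubiquitin ligase of p53 and itself a p53 target, averaged 109.8 ± 0.844 CPM of RNA in WT-shSCR, 65.7 ± 3.47 in WT-shARF and 49.4 ± 8.55 in Arf-/- shSCR. It fell in both comparisons in RNA (log2 change -0.74 in WT-shARF and -1.16 in Arf-/- shSCR, edgeR adjusted p = 0.00743 and 0.00111) and in footprints (-0.71 and -1.35, edgeR adjusted p = 6.72e-05 and 1.56e-09). *Trp53*, which encodes p53, rose in footprints of Arf-/- shSCR by a log2 of 0.42 (edgeR adjusted p = 0.00396). *Npm1*, the nucleolar partner of ARF, rose in footprints in Arf-/- shSCR (0.74, edgeR adjusted p = 1.43e-09) and WT-shARF (0.37, edgeR adjusted p = 0.000273). Its RNA rose as well in Arf-/- shSCR (0.73, edgeR adjusted p = 0.00345) and was not called in WT-shARF (0.28, edgeR adjusted p = 0.191). The TE of *Npm1* was not called in either (-0.02 and 0.10, edgeR adjusted p = 0.994 and 0.935). Of the 6 genes on this path, 1 rose and 1 fell in RNA in Arf-/- shSCR, and 3 rose and 1 fell in its footprints. In WT-shARF 1 fell in RNA, and 1 rose and 1 fell in footprints. Beside these, edgeR called 7.93% of all genes in RNA and 18.5% in footprints of Arf-/- shSCR, and 7.28% and 11.1% in WT-shARF.

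A list of 24 p53 target genes, which holds *Mdm2* but not *Cdkn1a*, fell where it changed. In Arf-/- shSCR RNA of 8 of 22 tested fell and none rose, with a median log2 change of -0.52, and footprints of 14 of 23 fell, with a median of -0.91. In WT-shARF RNA of 4 of 23 fell (median -0.23) and footprints of 8 of 23 fell (median -0.40). The 23 proliferation genes, among them *Mki67* and the *Mcm* helicase genes of DNA replication, moved the other way. In Arf-/- shSCR 17 rose in RNA and 22 in footprints, and in WT-shARF 17 rose in each assay. None fell, and the medians were from 0.62 to 0.83. Over all genes tested, edgeR called 7.93% in RNA and 18.5% in footprints of Arf-/- shSCR in either direction, and 7.28% and 11.1% in WT-shARF. The medians over all genes lay from -0.0038 to -0.00087.

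Of the cyclin and kinase genes whose products the members inhibit, *Ccna2*, *Ccnd1*, *Ccnd2*, *Ccnd3* and *Cdk4* were called against WT-shSCR in at least 1 assay and group. Of 9 G1 cyclin and Cdk genes tested, 1 rose and 1 fell in RNA in Arf-/- shSCR, and 3 rose in WT-shARF, where 7.93% and 7.28% of all genes were called. In footprints 2 rose and 1 fell in Arf-/- shSCR, and 3 rose and 1 fell in WT-shARF, where 18.5% and 11.1% of all genes were called. *Ccna2*, the cyclin A of S phase, rose in all 4 (log2 change 0.87 and 1.03 in RNA, 1.28 and 1.25 in footprints of Arf-/- shSCR and WT-shARF). Among the D-type cyclins, the partners of CDK4 and CDK6, *Ccnd2* fell in Arf-/- shSCR in RNA (log2 change -1.02, edgeR adjusted p = 0.000312) and footprints (-0.93, edgeR adjusted p = 1.10e-09), and in footprints of WT-shARF (-0.55, edgeR adjusted p = 9.63e-06). *Ccnd1* and *Ccnd3* rose in WT-shARF, in RNA by a log2 of 0.51 and 0.54 (edgeR adjusted p = 0.0258 and 0.0269) and in footprints by 0.79 and 0.75. *Ccnd1* differed between Arf-/- shSCR and WT-shARF in both assays (log2 change -0.80 in RNA and -0.95 in footprints, edgeR adjusted p = 0.0105 and 1.00e-06). *Cdk4*, the kinase that INK4 proteins bind, rose in footprints of Arf-/- shSCR by a log2 of 0.32 (edgeR adjusted p = 0.0332), and *Cdk2* footprints were higher there than in WT-shARF (0.66, edgeR adjusted p = 0.0332).

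Downstream of them, 12 genes of the Rb family and E2F were tested. RNA of 1 rose in WT-shARF and of none in Arf-/- shSCR, where 1 had an unadjusted edgeR p under 0.05, while in footprints 1 rose and 2 fell in Arf-/- shSCR and 1 rose and 1 fell in WT-shARF. These footprint counts lie near the 18.5% and 11.1% called over all genes, so the genes named next say nothing of the list as a whole. *Rb1*, which encodes the retinoblastoma protein, had footprints of 23.0 ± 0.952 CPM in WT-shSCR, 9.98 ± 4.93 in WT-shARF and 8.48 ± 3.79 in Arf-/- shSCR. They fell in Arf-/- shSCR (log2 change -1.42, edgeR adjusted p = 0.00470) and in WT-shARF (-1.15, edgeR adjusted p = 0.0413). *E2f1* footprints fell in Arf-/- shSCR (-0.81, edgeR adjusted p = 0.0393). *Tfdp1*, the dimer partner of E2F factors, rose in footprints of Arf-/- shSCR and WT-shARF (0.71 and 0.58, edgeR adjusted p = 0.00150 and 0.0281) and in RNA of WT-shARF (0.64, edgeR adjusted p = 0.0164).

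Genes around the members were also read. Of 23 tested regulators of the *Cdkn2a* and *Cdkn2b* locus, mostly Polycomb proteins and transcription factors, *Ezh2* rose in footprints of Arf-/- shSCR (log2 change 0.63, edgeR adjusted p = 0.00567) and in RNA of WT-shARF (0.67, edgeR adjusted p = 0.0443). *Id1* fell in WT-shARF in RNA (-0.64, edgeR adjusted p = 0.0319) and footprints (-0.46, edgeR adjusted p = 0.0251), and the remaining 21 were not called in RNA or footprints against WT-shSCR. Over all genes tested, edgeR called 7.93% in RNA and 18.5% in footprints of Arf-/- shSCR, and 7.28% and 11.1% in WT-shARF. The calls on this list lie near or below these shares, so *Ezh2* and *Id1* say nothing of the list as a whole. *Mtap*, the gene beside *Cdkn2a* and *Cdkn2b* that encodes an enzyme of methionine salvage, was 97.0 ± 0.222 CPM of RNA in WT-shSCR, 124 ± 11.3 in WT-shARF and 126 ± 12.8 in Arf-/- shSCR. Its footprints rose in Arf-/- shSCR (0.33, edgeR adjusted p = 0.0457), and in WT-shARF it was not called, so the rise of *Cdkn2a* in those libraries was not accompanied by called changes of *Cdkn2b* or *Mtap*. The other neighbour, *Dmrta1*, fell below the filter.

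Of 11 genes whose products degrade p21 and p27, 1 rose in RNA and 5 in footprints in Arf-/- shSCR. In WT-shARF 2 rose in footprints, and none fell in either group. Over all genes tested, 7.93% and 18.5% were called in RNA and footprints of Arf-/- shSCR, and 7.28% and 11.1% in those of WT-shARF. Called higher were 420 of 10659 genes in RNA and 1027 of 10737 in footprints of Arf-/- shSCR. In footprints of WT-shARF they were 580 of 10307. The counts in RNA and in WT-shARF are of at most 2 genes and say nothing of the list as a whole. *Skp2*, the subunit that recognizes p27, rose in footprints of Arf-/- shSCR and WT-shARF (log2 change 0.80 and 0.88, edgeR adjusted p = 0.0155 and 0.0181). Its cofactor *Cks1b* rose there as well (0.65 and 0.74, edgeR adjusted p = 0.0360 and 0.0439), and in RNA of Arf-/- shSCR (0.96, edgeR adjusted p = 0.0122). *Cul4b*, *Rbx1* and *Dtl*, components of ligases that act on p21, rose in footprints of Arf-/- shSCR by a log2 of 0.38 to 0.64.

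Both depth and the spread between 2 replicates limit the precision of these values. An RNAseq library held 1578627 to 3989908 reads on genes and a RiboSeq library 2544319 to 5157572, so that in RNAseq 5 of the 7 members had at most 115 reads in every library. With 2 replicates against 2, an exact permutation test of a single gene could not go below a p of 0.33 (two-sided).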

How the data were processed

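RNAseq and RiboSeq libraries of 3 groups of MEFs with 2 replicates each were analysed. According to the study's methods and the submitters' processing notes, adapters were clipped with fastx_clipper, reads split by barcode, molecular identifiers removed with UMI-tools and barcodes with cutadapt, reads of rRNA and noncoding RNA removed with Bowtie2, and the rest aligned to mm10 with TopHat and counted on coding sequences with HTSeq. A removal of duplicate reads is not named. The authors deposited raw counts per gene for 20661 genes without normalization, and 5 summary rows per file were left out. Alignments that HTSeq found not unique were not counted.

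From these deposited counts, TMM factors were computed with edgeR 4.0.16 (R 4.3.3), which also kept genes by filterByExpr and fitted quasi-likelihood models over the 4 libraries of a comparison (RNA or footprints) or its 8 libraries (TE, by an interaction term between condition and assay), with Benjamini-Hochberg adjustment over all genes tested and a threshold of 0.05. The SE is the log2 fold change divided by the root of F. The fits of Arf-/- shSCR against WT-shSCR in RNA, footprints and TE were tested on simulated counts, and those of the other comparisons were not. Alternatives were DESeq2 1.42.0, the tool of the study, RLE and upper quartile factors, a fit of all groups together, a minimum of 10 counts in every library, no filter, a replicate block, the longest single coding transcript or plain library totals for levels, and leaving out each replicate. Coordinates, coding lengths and sequences came from GENCODE M21 for GRCm38, which is the assembly of mm10, and a window of 28 nt stood for a read. Figures were drawn in Python 3.11.15 with matplotlib 3.10.9.

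The 7 members and all gene lists were chosen with earlier results of these data known. All members are named. For *Cdkn2a* and *Cdkn1a* the 5 genes of highest r are named, except for a gene on the *Cdkn1a* list that is not reported here, and of each pathway list at most the 6 genes with the smallest adjusted p among those called. Replicate numbers come from the labels, which do not say what replicates share. Replicates of a group differed beyond sampling noise, with a chi-square per gene of 3.87 to 7.63, so none was counted as a duplicate. Proteins and the hairpin sequence were not analysed here.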

Additional observations from a re-analysis of the deposited data

Results flagged for a closer look

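The changes of 3 members differed between Arf-/- shSCR and the libraries labelled WT-shARF, by the edgeR test of one group against the other, n = 2 each. In RNA, the log2 change of Arf-/- shSCR over WT-shARF was -1.46 for *Cdkn1a* (adjusted p = 0.00664) and -4.46 for *Cdkn2a* (adjusted p = 1.27e-09). In footprints, it was -1.20 for *Cdkn1a* (adjusted p = 1.44e-07), -4.10 for *Cdkn2a* (adjusted p = 1.42e-12) and -1.50 for *Cdkn2b* (adjusted p = 1.89e-05). Both libraries of Arf-/- shSCR lay below both of WT-shARF in each case. Without 1 of the WT-shARF replicates, the calls of *Cdkn1a* in RNA and of all 3 genes in footprints were lost, with log2 changes from -1.78 to -1.12 for *Cdkn1a* RNA, -1.29 to -1.11 for *Cdkn1a* footprints, -4.32 to -3.84 for *Cdkn2a* footprints and -1.55 to -1.44 for *Cdkn2b* footprints.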

How the results depend on the processing

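Of 641 values of members under an alternative, 616 kept their side of the threshold, 7 passed it newly, 18 no longer passed it, and no called value reversed. The number of members called was as reported with RLE factors, upper quartile factors and at least 10 counts in every library. In RNA of WT-shARF against WT-shSCR it went from 2 to 1 with DESeq2 and to 1 with all groups in 1 fit, and in TE of WT-shARF against WT-shSCR from 0 to 1 with DESeq2 and to 1 without the filter. The cause was not tested. Leaving out a replicate gave 1 to 2 members in RNA of Arf-/- shSCR against WT-shSCR, 1 to 2 in RNA of WT-shARF, 1 to 3 in RNA of Arf-/- shSCR against WT-shARF, 0 to 3 in footprints of both comparisons of Arf-/- shSCR, 1 to 2 in footprints of WT-shARF, and 0 to 1 in TE of WT-shARF. A group left with 1 library is assumed to vary like the other. In footprints of Arf-/- shSCR the 0 came from leaving out either WT-shSCR replicate or, against WT-shARF, either WT-shARF replicate, where edgeR called 0 or 1 gene in all.

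The replicate number as a block took the members called in TE of WT-shARF from 0 to 1 (*Cdkn2a*, log2 change -0.90, edgeR adjusted p = 0.0156) and changed no other count of members. Deviations of same-numbered libraries from their group means correlated at r = -0.031 to 0.015 in RNAseq and 0.002 to 0.026 in RiboSeq across genes, and at -0.119 to 0.054 in RNAseq among genes of at least 30 counts, so the numbers were not taken as pairs. Over all genes the block moved the calls of TE in WT-shARF from 4 higher and 0 lower to 28 and 7, and in TE of Arf-/- shSCR against WT-shARF from 2 and 3 to 4 and 10.

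Over all genes, higher and lower calls with DESeq2 were 199 and 193 (edgeR 420 and 425) in RNA of Arf-/- shSCR and 114 and 173 (327 and 438) in RNA of WT-shARF. In footprints they were 645 and 529 (1027 and 961), 359 and 313 (580 and 567) and, for Arf-/- shSCR against WT-shARF, 249 and 281 (430 and 470). In TE of Arf-/- shSCR, edgeR called 10 and 12, DESeq2 68 and 13, edgeR without the filter 83 and 40, with all groups in 1 fit 38 and 14, with at least 10 counts 15 and 19, and with RLE or upper quartile factors 15 and 12. In TE of WT-shARF DESeq2 called 45 and 5, edgeR without the filter 30 and 10, with at least 10 counts 10 and 3, with upper quartile factors 2 and 0, and with all groups in 1 fit 0, where 771 had an unadjusted p under 0.05. In TE of Arf-/- shSCR against WT-shARF DESeq2 called 10 and 10 and edgeR without the filter 26 and 51. All groups in 1 fit gave 217 and 280 in RNA of WT-shARF, and no filter gave 339 and 278 (147 and 126) in RNA of Arf-/- shSCR against WT-shARF. Without a replicate, calls of the 9 comparisons ranged from 0 to 1193.

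Shares of the sum per kb moved with the longest single coding transcript in place of the union. The share of *Cdkn2a* became 16.9%, 79.6% and 21.5% of RNA and 9.63%, 51.2% and 11.3% of footprints, in the order WT-shSCR, then WT-shARF, then Arf-/- shSCR, and that of *Cdkn1a* 21.4% of RNA in Arf-/- shSCR and 70.4% and 56.6% of footprints in WT-shSCR and Arf-/- shSCR. Plain library totals moved none of the 12 shares beyond 1 SD. Leaving out a replicate could not show this, since with 2 replicates the one left always lies within 1 SD of their mean. Depth limits *Cdkn2c* most, with 3 to 14 footprint reads per library.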
